A study of Mus musculus with 2 samples.

Results

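The angiopoietins and their Tie receptors form a small signaling axis of the vessel wall, and its 5 genes in the count table (Angpt1, Angpt2, Tek, Tie1 and Ptprb, 5 of 31055 features) were described across the cells sorted from 2 orthotopic tumor models. The 5 genes were taken by symbol. The assay was scRNAseq in droplets, where a cell's RNA molecules are told apart by a random tag, the unique molecular identifier (UMI), so that 1 UMI stands for 1 molecule read from its 3′ end. The hosts were female wild-type (WT) C57BL6 mice, 6 weeks old, implanted with 100000 cells of the KPC line, a pancreatic cancer line from p48-Cre mice, or of the PyMT line, a mammary cancer line, and tumors were digested 10 days later. Cells that bound antibodies to CD45, EpCAM, Ter119, podoplanin or Annexin V were depleted before blood endothelial cells (BECs) were sorted. The numbers of lymphatic endothelial barcodes, and of tumor, immune and other non-endothelial barcodes, are thus those left after this depletion and the sort. Each model had 1 library, and the number of mice behind it is not given in the sources used here. Cells from the same library do not replicate a model, hence no test between models or cell classes was possible, and every interval below is a 95% interval for counting error only.

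The KPC library held 44441942 UMIs in 10236 barcodes and the PyMT library 55547926 UMIs in 12464 barcodes. Kept were barcodes that showed 500 genes or more and less than 10% mitochondrial UMIs, 9591 in KPC with a median of 3141 UMIs and 11744 in PyMT with a median of 3978. Among the barcode sequences, 170 occurred in both libraries, of which 151 were kept in both. Kept barcodes were placed in 9 classes by UMIs of a few genes, in a fixed order: Krt8 and Krt18, Col1a1 and Col1a2 (fibroblast), Mmrn1 and Prox1 (lymphatic), Notch3 and Higd1b (pericyte), Ackr1 and Selp (venule), Gja5 and Sema3g (artery), Apln (tip), Car4 and Cd300lg (capillary), and other. The classes so made held 802 lymphatic, 1366 tip, 640 venule, 1282 capillary, 105 artery, 119 pericyte, 443 fibroblast and 4040 other barcodes in KPC, and 633, 2210, 360, 2520, 126, 27, 28 and 5461 in PyMT. The Krt8/Krt18 class held 794 barcodes in KPC, where 5 epithelial tumor markers (Epcam, Krt19, Krt7, Cldn4, Cldn7) summed to 4493 CPM (UMIs of a gene per 1000000 UMIs of the class), and 379 in PyMT, where they summed to 42.1 CPM, so that class is called here by its gate genes. Markers of other classes were not absent from some gates. The 5 pan-endothelial markers (Pecam1, Cdh5, Egfl7, Emcn, Esam) were all detected in the pericyte class and summed there to 3250 CPM in KPC and 3874 in PyMT, against 4415 to 6740 and 4263 to 4664 in the 4 blood endothelial classes (venule, artery, tip, capillary). The 5 capillary markers (Rgcc, Gpihbp1, Fabp4, Cd36, Aqp7) summed to 12457 CPM in the KPC capillary class and 6336 in the KPC tip class, but to 4884 and 3487 in PyMT, where the class labelled capillary stood less apart. The 5 tip markers (Esm1, Kcne3, Pgf, Cxcr4, Trp53i11) summed to 1444 CPM in KPC tip and 671 in KPC other barcodes. In PyMT these sums were 1013 and 828 CPM, so the PyMT tip class also stood less apart. There Kcne3, Cxcr4 and Trp53i11 were higher in other than in tip barcodes, and Esm1 and Pgf were lower. In KPC, Kcne3 and Cxcr4 were higher in artery than in tip barcodes, and the other tip markers were lower.

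Tek (Tie2) is the receptor tyrosine kinase that binds the secreted angiopoietins. Angpt1, made mainly by cells around the endothelium, activates Tek and is known for keeping vessels quiescent and tight, whereas Angpt2, made and stored by endothelial cells, often acts as its antagonist and is known as a gene of sprouting and inflamed vessels. Tie1 is a related receptor that pairs with Tek without binding angiopoietins strongly itself, and Ptprb (VE-PTP) is an endothelial phosphatase that dephosphorylates Tek. The genes lie, in GRCm38 with the GENCODE M21 annotation, at chr15:42424723-42676977 (minus strand) for Angpt1, chr8:18690263-18741562 (minus) for Angpt2, chr4:94739289-94874976 (plus) for Tek, chr4:118471191-118490061 (minus) for Tie1 and chr10:116275523-116389535 (plus) for Ptprb. Angpt2 lies inside Mcph1 on the opposite strand without shared exon bases. Exons of Angpt1 overlap those of the antisense gene Gm17473, which has its own row in the counts, and strand handling is not given in the sources used here, so Angpt1 counts could include or miss such reads.

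Promoter sequence was at hand for the 2 receptors, Tek and Tie1, whose levels were both lower in tip than in capillary barcodes in both libraries. The lines below give 250 bases before to 50 bases after the start of each gene in RefSeq (GRCm38.p6), 5′ to 3′ on the gene's strand, at chr4:94739039-94739338 (plus) for Tek and chr4:118489800-118490099 (minus) for Tie1. The 2 windows are not placed alike on the GENCODE genes. Most of the Tie1 window lies inside the GENCODE gene, which starts at chr4:118490061, and most of the Tek window lies before the GENCODE start, chr4:94739289. Capitals mark AGGAAG, a longer form of the ETS core GGAA, read on either strand. The shorter core GGAA also occurs in both windows outside the capitals and is not marked.
Tek: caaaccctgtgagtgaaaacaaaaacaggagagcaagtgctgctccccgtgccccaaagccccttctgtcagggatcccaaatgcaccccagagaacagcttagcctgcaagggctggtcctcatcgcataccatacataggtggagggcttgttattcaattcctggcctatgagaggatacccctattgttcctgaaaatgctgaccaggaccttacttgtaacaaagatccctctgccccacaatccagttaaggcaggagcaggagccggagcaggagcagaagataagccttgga
Tie1: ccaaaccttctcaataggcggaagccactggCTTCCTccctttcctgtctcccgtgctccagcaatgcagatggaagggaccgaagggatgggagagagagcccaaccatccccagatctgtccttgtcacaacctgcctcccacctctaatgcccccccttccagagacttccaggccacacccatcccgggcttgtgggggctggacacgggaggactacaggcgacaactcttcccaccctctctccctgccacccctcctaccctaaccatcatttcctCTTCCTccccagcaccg
The longer form AGGAAG occurred 0 times in the Tek window and 2 times in the Tie1 window, and 35.4% of 32851 RefSeq promoters of the same length held it. The shorter core GGAA was not counted. The forkhead core TGTTTA, read on either strand, occurred in neither window and in 13.4% of all promoters. The Tie1 window held 7 CpG dinucleotides at 60.3% GC, and the Tek window 3 at 52.0% GC. These counts describe the letters of the windows only.

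Angpt2 was the member whose level varied most between endothelial classes, and its level was highest in the lymphatic and tip barcodes. In KPC its level was 504 CPM in lymphatic, 401 in tip, 126 in pericyte, 114 in venule, 92.5 in other, 42.9 in capillary, 18.5 in artery, 10.2 in fibroblast and 8.46 in Krt8/Krt18 barcodes. In PyMT it was 295 CPM in lymphatic, 215 in tip, 127 in venule, 79.4 in capillary, 78.6 in other, 34.9 in artery and 16.6 in Krt8/Krt18 barcodes. The order of the classes was the same in both libraries for lymphatic, tip, venule, capillary and artery. Neighbors in this order differed beyond their intervals except pericyte and venule, artery and fibroblast, and fibroblast and Krt8/Krt18 in KPC, and capillary and other in PyMT. The tip class held 14.2% of the KPC barcodes and 49.9% of the 6946 Angpt2 UMIs, and 18.8% of the PyMT barcodes and 45.1% of the 6669. The lymphatic class held a further 25.7% and 11.8% of these UMIs, from 8.36% and 5.39% of the barcodes. In PyMT this was less than in the capillary class (14.7%, from 21.5% of the barcodes) and the other class (24.2%, from 46.5%). In KPC those 2 classes held 2.20% and 14.8% of the UMIs, from 13.4% and 42.1% of the barcodes. Tip barcodes were deeper than the kept barcodes as a whole (median 5311 and 3141 UMIs in KPC, 5614 and 3978 in PyMT). Shares of UMIs beside shares of barcodes therefore also reflect depth, which the CPM levels take into account.

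**Figure D1:**
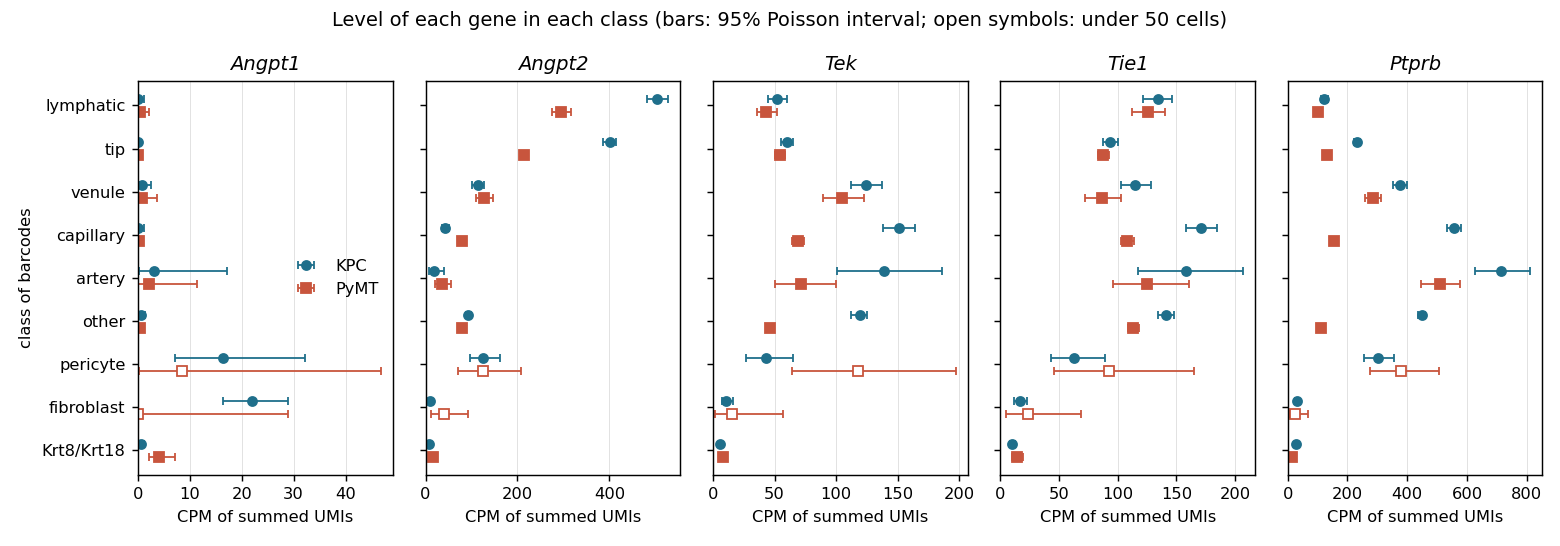
Level of each gene (CPM of summed UMIs, horizontal axis from 0) in each class of barcodes, with KPC as circles, PyMT as squares and bars for the 95% Poisson interval; open symbols are classes under 50 cells. Angpt2 was highest in lymphatic (504 and 295 CPM) and tip barcodes (401 and 215), Ptprb was highest in artery (714 and 509), and Angpt1 exceeded 10 CPM only in the KPC fibroblast and pericyte classes.

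**Figure D2:**
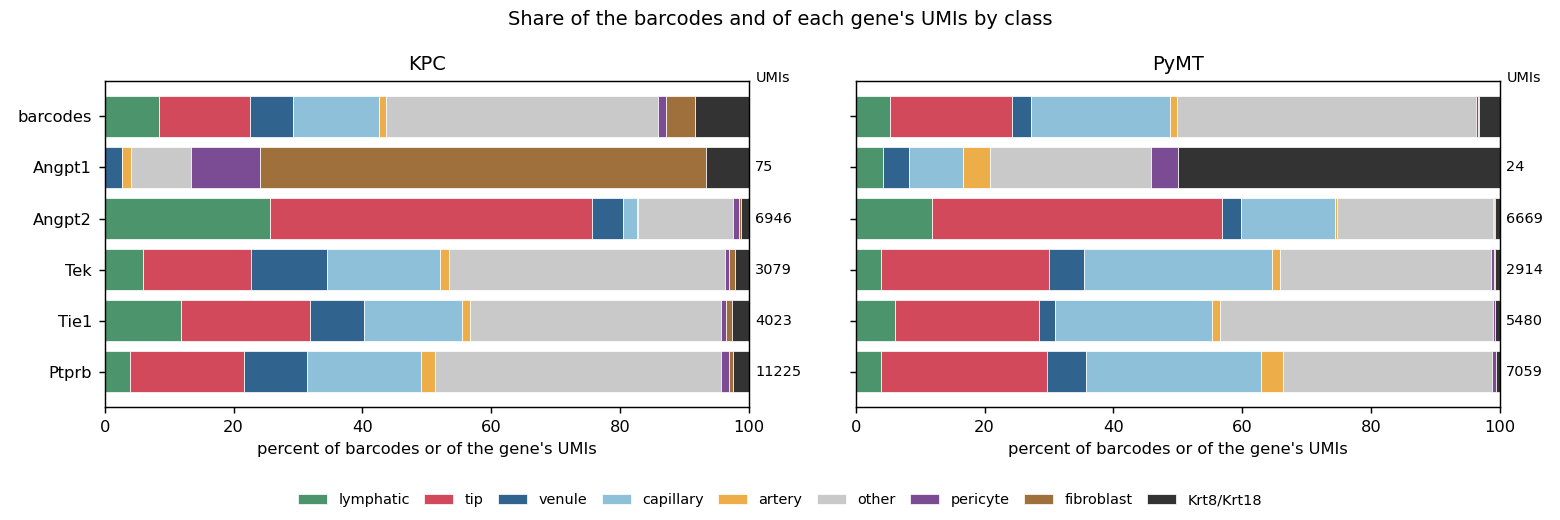
Percent of the kept barcodes (top bar) and of each gene's UMIs that fell in each class, in KPC and PyMT, with the gene's UMI total at the right of its bar. Tip barcodes carried 49.9% and 45.1% of the Angpt2 UMIs from 14.2% and 18.8% of the barcodes, and their median depth was above that of all kept barcodes. The 75 Angpt1 UMIs of KPC lay mostly in fibroblast barcodes (69.3%).

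In KPC, Angpt2 was 9.33-fold higher in tip than in capillary barcodes (log2 ratio 3.22, interval 2.99 to 3.47, from 3463 and 153 UMIs). In PyMT the same ratio was 2.70-fold (log2 1.44, interval 1.33 to 1.54, from 3009 and 983 UMIs). Among genes with at least 20 UMIs in the 2 classes together, 4 of the 5 members could be compared, and Angpt2 was the 1 of 4 higher by 2-fold or more, where 3.52% of 10893 genes were in KPC and 0.885% of 11519 in PyMT. Tip barcodes were deeper than capillary barcodes, with a median of 5311 UMIs in tip and 1869 in capillary in KPC, and 5614 and 4246 in PyMT. Among barcodes of 3000 to 6000 UMIs the log2 ratio was 3.31 in KPC and 1.46 in PyMT. Of the tip barcodes, 199 of 1366 in KPC and 874 of 2210 in PyMT also met the capillary gate, and these carried Angpt2 at 324 and 170 CPM, against 416 and 252 in tip barcodes that did not. When they were counted as capillary the log2 ratio fell to 1.73 in KPC and 1.19 in PyMT.

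Venule barcodes lay between tip and capillary barcodes in Angpt2. The level was 2.67-fold above capillary in KPC (log2 1.41, interval 1.13 to 1.70), which again made Angpt2 the 1 of 4 members higher by 2-fold or more, against 3.88% of 10220 genes, and 1.59-fold above in PyMT (log2 0.67, interval 0.44 to 0.90). With other settings the KPC log2 ratio lay between 1.13 (without barcodes that met several gates) and 1.85 (mean of per-cell CPM). In PyMT it lay between 0.37 (gates on thinned counts, interval -0.15 to 0.86) and 0.76 (without the highest UMI totals). Without barcodes that met several gates, 177 of the 335 venule UMIs remained in KPC and 56 of the 190 in PyMT. The PyMT log2 ratio was then 0.47 (0.05 to 0.86). Artery barcodes carried the least Angpt2 of the endothelial classes, with 6 UMIs in 105 barcodes in KPC and 17 UMIs in 126 in PyMT. The log2 ratio of artery over capillary was -1.21 (interval -2.68 to -0.05) and -1.19 (-1.97 to -0.50). Angpt2 was the 1 of 4 members lower by 2-fold or more there in either library, where 13.5% of genes were in KPC and 13.3% in PyMT. In KPC, 5 of those 6 artery UMIs came from barcodes that met several gates, so that without such barcodes 1 UMI remained.

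Lymphatic barcodes exceeded the 4 pooled blood endothelial classes by 1.97-fold in KPC (log2 0.98, interval 0.90 to 1.06) and by 2.00-fold in PyMT (interval 0.89 to 1.11 on the log2 scale). With other settings the KPC log2 ratio lay between 0.63 (gates on thinned counts) and 1.33 (mean of per-cell CPM). The PyMT ratio lay between 0.91 (gates raised by 1 UMI) and 1.26. Lymphatic barcodes also exceeded the tip class, by log2 0.33 (0.25 to 0.41) and 0.46 (0.34 to 0.57). Blood endothelial barcodes with 4 or more Apln UMIs, not thinned, held 505 CPM in KPC and 286 in PyMT, beside 504 and 295 in the lymphatic class. The 5 tip markers (Esm1, Kcne3, Pgf, Cxcr4, Trp53i11) were all detected in the lymphatic class but summed there to 293 CPM in KPC and 344 in PyMT, against 1444 and 1013 in the tip class, and the 5 lymphatic markers (Lyve1, Flt4, Pdpn, Ccl21a, Reln) summed to 115 CPM in the tip class of either library against 16214 and 13023 in the lymphatic class. The part of mixed barcodes in the lymphatic level was not tested beyond this.

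Angpt2 was unevenly spread among the cells of a class. With each cell thinned to 2000 UMIs, 42.0% of 1295 KPC tip cells held an Angpt2 UMI (interval 39.3 to 44.8) against 7.51% of 586 capillary cells (5.51 to 9.95), and in PyMT these shares were 26.1% of 2160 (24.3 to 28.0) and 12.9% of 2288 (11.6 to 14.4). Thinning left out 71 tip and 696 capillary barcodes in KPC and 50 and 232 in PyMT, and the unthinned shares were 59.0% and 7.72% in KPC and 48.5% and 24.0% in PyMT. In the Krt8/Krt18 class the thinned share was 1.78% in KPC, at a median depth of 12688 UMIs, where high epithelial markers make it a comparison for free RNA. It was 3.18% in PyMT, at a median of 6939 UMIs, where the class held few epithelial markers and pan-endothelial markers at 611 CPM, so it is not such a comparison there. Without thinning the KPC Krt8/Krt18 share was 7.68% (interval 5.93 to 9.76), beside the 7.72% of KPC capillary barcodes. The part of free RNA in the KPC capillary level of Angpt2 was not tested. The KPC tip cells with 5 or more thinned Angpt2 UMIs were 4.32% of the class and held 27.4% of its Angpt2 UMIs, and in PyMT 1.02% of the tip cells held 13.6%. Among lymphatic cells 6.67% in KPC held 39.8% of the UMIs and 1.84% in PyMT held 19.6%. No KPC capillary cell reached 5 UMIs.

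The Angpt2 level rose in steps with Apln, the gene of the tip gate and a secreted peptide of sprouting endothelium. Among blood endothelial and other cells thinned to 2000 UMIs, it was 95.9 CPM at 0 Apln UMIs, 204 at 1, 422 at 2 to 3 and 1012 (interval 925 to 1105, 248 cells) at 4 or more in KPC. In PyMT it was 82.9, 123, 259 and 550 CPM (480 to 628, 200 cells). Intervals of adjacent steps did not overlap in either library. At 0 Apln UMIs the intervals were 88.3 to 104 CPM in KPC and 78.2 to 87.8 in PyMT, and at 4 or more KPC was also higher. The other class carried the 5 lymphatic markers at 796 CPM in KPC and 649 in PyMT, above the 4 blood endothelial classes. Without it the Angpt2 levels at 0 and 1 Apln UMIs were 103 and 228 CPM in KPC and 90.4 and 133 in PyMT. Classes were set before thinning, so these cells included tip cells that had lost Apln UMIs to thinning. Not thinned and without the other class, the levels were 55.8 (49.3 to 62.9) and 64.7 CPM (51.3 to 80.5) in KPC. In PyMT they were 78.9 (73.5 to 84.5) and 89.3 CPM (80.2 to 99.1). The intervals at this step thus overlapped in both libraries. The part of lymphatic cells in the other class was not tested.

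**Figure D3:**
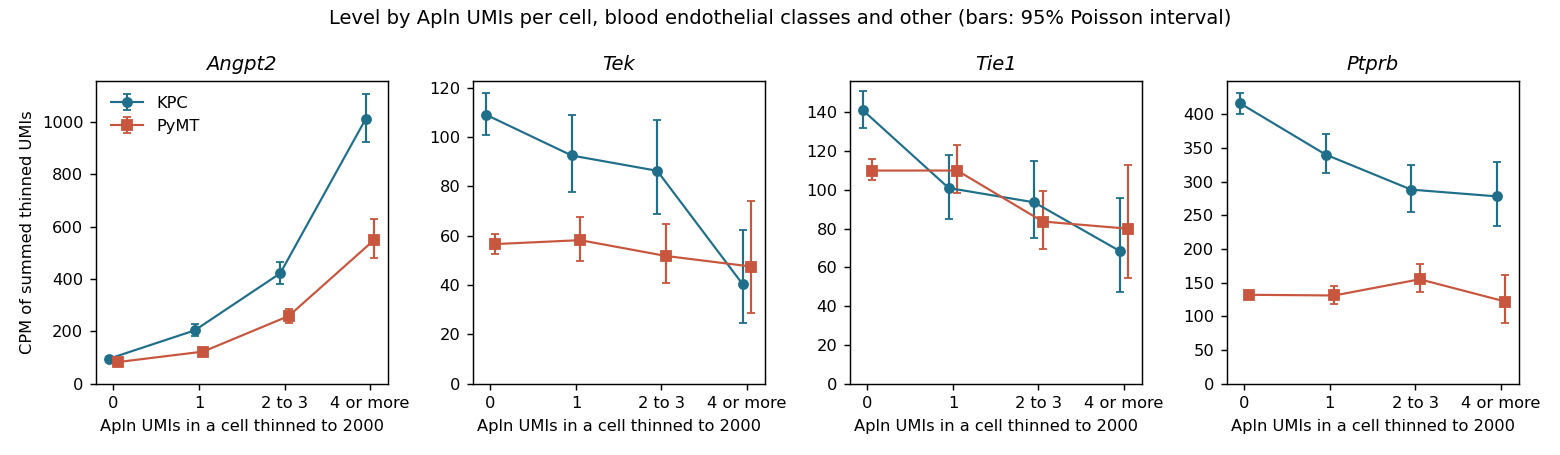
Level of 4 genes (CPM, vertical axis from 0) by the number of Apln UMIs in a cell thinned to 2000 UMIs, over blood endothelial and other cells of KPC (circles) and PyMT (squares), with bars for the 95% Poisson interval. Angpt2 rose at each step, to 1012 CPM in KPC and 550 in PyMT, while Tek fell from 109 to 40.3 CPM in KPC and was 56.6 and 47.5 CPM at the ends in PyMT.

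Angpt1 was close to absent from the endothelial classes, and in KPC most of its few UMIs lay in fibroblast and pericyte barcodes. KPC held 75 Angpt1 UMIs and PyMT 24. In KPC, 52 UMIs lay in fibroblast barcodes (22.0 CPM, interval 16.4 to 28.9), 8 in pericyte barcodes (16.3 CPM, 7.03 to 32.1) and 3 in the 3393 pooled blood endothelial barcodes (0.194 CPM, 0.0400 to 0.567). The tip class of KPC held 0 Angpt1 UMIs in 1366 barcodes (interval to 0.427 CPM), where 3 UMIs would make 0.347 CPM. The PyMT tip class held 0 in 2210 (interval to 0.263 CPM), where 3 UMIs would make 0.214 CPM. The lymphatic class held 0 in KPC and 1 in PyMT. The KPC fibroblast level was above the blood endothelial pool by a log2 ratio of 6.83 (interval 5.20 to 9.15) and the pericyte level by 6.39 (4.33 to 8.94), both against a pool of 3 UMIs. Among the KPC fibroblast barcodes, 41 of 443 held an Angpt1 UMI, or 9.26% (6.72 to 12.3), at a median of 4912 UMIs, and 3.19% of 408 did after thinning.

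The pericyte value of Angpt1 rested on few molecules. Only 45 of the 119 KPC pericyte barcodes lacked a UMI of Pecam1 or Cdh5, and these held 1 of the 8 Angpt1 UMIs, giving a log2 ratio over the pool of 5.49 with an interval that included 0 (-0.23 to 9.13). The same 45 barcodes held 11 Angpt2 UMIs (95.8 CPM, interval 47.8 to 171), 0 Tek, 1 Tie1 and 6 Ptprb UMIs. Over all KPC pericyte barcodes Angpt2, Tek, Tie1 and Ptprb reached 49.3%, 45.1%, 54.0% and 87.8% of their level in the blood endothelial pool, and the 5 pan-endothelial markers 59.1%. Angpt2 and Tek were thus 2 of 4 members lower by 2-fold or more in KPC pericyte barcodes, against 13.0% of 11428 genes. Both lay near the threshold, Angpt2 at log2 -1.02 (-1.41 to -0.66) and Tek at -1.15 (-1.84 to -0.53). With other settings the Angpt2 ratio lay between -0.87 (mean of per-cell CPM) and -1.55 (without barcodes that met several gates). Gates on thinned counts gave Tek -0.84. Ptprb was at -0.19 (-0.43 to 0.05), and between 0.03 (stricter filter on barcodes) and -0.89 (mean of per-cell CPM) with other settings. The part of endothelial RNA in the pericyte levels was not tested further. In PyMT, 12 of the 24 Angpt1 UMIs came from the Krt8/Krt18 class (4.07 CPM, 2.11 to 7.12) and 6 from other barcodes. That class carried 5 of 5 fibroblast markers (Dcn, Lum, Pdgfra, Col3a1, Dpt) at 341 CPM in sum, of which Col3a1 made 307, and 4 of 5 pericyte markers at 84.6 CPM, with Cspg4 at 0, and their part in the Angpt1 level was not tested. The PyMT fibroblast (28 barcodes, 0 UMIs) and pericyte (27 barcodes, 1 UMI) classes were too small to enter a ratio. Those pericyte barcodes held 15 Angpt2 UMIs (126 CPM), 14 Tek (118), 11 Tie1 (92.4) and 45 Ptprb UMIs (378). The PyMT blood endothelial pool held these genes at 148, 63.6, 97.3 and 156 CPM. Only 4 of the 27 barcodes lacked a UMI of Pecam1 or Cdh5, and these held 0 UMIs of all 5 members (interval to 428 CPM for each). Over all 27, the pan-endothelial markers reached 87.9% of the pool. The 5 capillary markers summed there to 10538 CPM, against 4884 in the PyMT capillary class. The part of endothelial RNA in these PyMT levels was not tested.

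In KPC fibroblast barcodes the other 4 members were low, as were the pan-endothelial markers. Angpt2, Tek, Tie1 and Ptprb stood at 3.97%, 11.6%, 14.1% and 8.76% of their blood endothelial level, and the pan-endothelial markers at 7.16%. Set against the pool, Angpt1 was the 1 of 5 members higher by 2-fold or more (14.0% of 11961 genes) and the other 4 of 5 were lower (20.3%).

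Tek was expressed in all endothelial classes and was lowest in tip and lymphatic barcodes of KPC. Its KPC levels were 151 CPM in capillary, 139 in artery, 124 in venule, 119 in other, 59.9 in tip, 51.7 in lymphatic, 42.7 in pericyte, 11.0 in fibroblast and 6.07 in Krt8/Krt18 barcodes. The first 4 of these did not differ beyond their intervals from their neighbors, and neither did tip, lymphatic and pericyte. In PyMT the levels were 105 CPM in venule, 71.8 in artery, 68.9 in capillary, 54.2 in tip, 46.5 in other, 43.1 in lymphatic and 7.81 in Krt8/Krt18 barcodes, with artery and capillary, and other and lymphatic, not apart. Tip barcodes were 2.52-fold below capillary in KPC (log2 -1.33, interval -1.51 to -1.16) and 1.27-fold below in PyMT (log2 -0.35, -0.49 to -0.20). Among the 4 blood endothelial classes, tip barcodes were thus the highest in Angpt2 and the lowest in Tek in both libraries. In PyMT, the Tek levels of tip and artery barcodes were not apart (log2 -0.41, interval -0.89 to 0.13).

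Tie1 was the most evenly spread of the members. In KPC it ranged from 93.5 CPM in tip to 171 in capillary among the 6 classes of endothelial and other barcodes, with artery at 158, other at 141, lymphatic at 134 and venule at 115. In PyMT it ranged from 86.7 CPM in venule and 87.7 in tip to 126 in lymphatic, with artery at 125, other at 113 and capillary at 108. Unlike Tek and Ptprb, Tie1 was not lower in lymphatic than in pooled blood endothelial barcodes (log2 0.19, interval 0.05 to 0.34, in KPC and 0.37, 0.20 to 0.53, in PyMT). Tek was lower there by log2 -0.87 (-1.10 to -0.65) and -0.56 (-0.85 to -0.29). Tip barcodes were below capillary barcodes in Tie1 by a log2 ratio of -0.87 (-1.03 to -0.72) in KPC and -0.30 (-0.42 to -0.19) in PyMT.

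Ptprb was highest in artery barcodes of both libraries. In KPC it stood at 714 CPM in artery, 556 in capillary, 448 in other, 375 in venule, 301 in pericyte, 231 in tip, 123 in lymphatic, 30.1 in fibroblast and 26.4 in Krt8/Krt18 barcodes, and all neighbors but the last pair differed beyond their intervals. In PyMT it stood at 509 CPM in artery, 285 in venule, 154 in capillary, 131 in tip, 111 in other, 102 in lymphatic and 15.6 in Krt8/Krt18 barcodes, with other and lymphatic not apart. Artery exceeded capillary by log2 0.36 (interval 0.16 to 0.56) in KPC and by 1.72 (1.52 to 1.91) in PyMT, where Ptprb was the 1 of 4 members higher by 2-fold or more against 8.95% of 10791 genes. Lymphatic barcodes were below the blood endothelial pool by log2 -1.48 (-1.63 to -1.34) in KPC, where Ptprb was the 1 of 4 members lower by 2-fold or more against 10.1% of 11755 genes, and by -0.62 (-0.80 to -0.44) in PyMT. Tip barcodes were below capillary barcodes by log2 -1.27 (-1.36 to -1.18) in KPC and -0.24 (-0.34 to -0.15) in PyMT.

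In tip against capillary barcodes, Tek and Ptprb were therefore the 2 of 4 members lower by 2-fold or more in KPC, where 7.05% of 10893 genes were, and 0 of 4 were in PyMT, where 1.77% of 11519 were. Among barcodes of 3000 to 6000 UMIs the KPC ratios of Tek and Ptprb moved more than that of Angpt2, while that of Tie1 moved little. This range held 589 tip and 247 capillary barcodes of KPC, so it changed the barcodes as well as their depth. The KPC log2 ratio there was -0.83 (-1.17 to -0.49) for Tek, -0.92 (-1.21 to -0.63) for Tie1 and -0.78 (-0.95 to -0.62) for Ptprb. Tek and Ptprb were thus not past 2-fold in this range. In PyMT the same barcodes gave -0.19 (-0.44 to 0.05), -0.10 (-0.29 to 0.09) and -0.10 (-0.27 to 0.06), and all 3 intervals included 0.

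**Figure D4:**
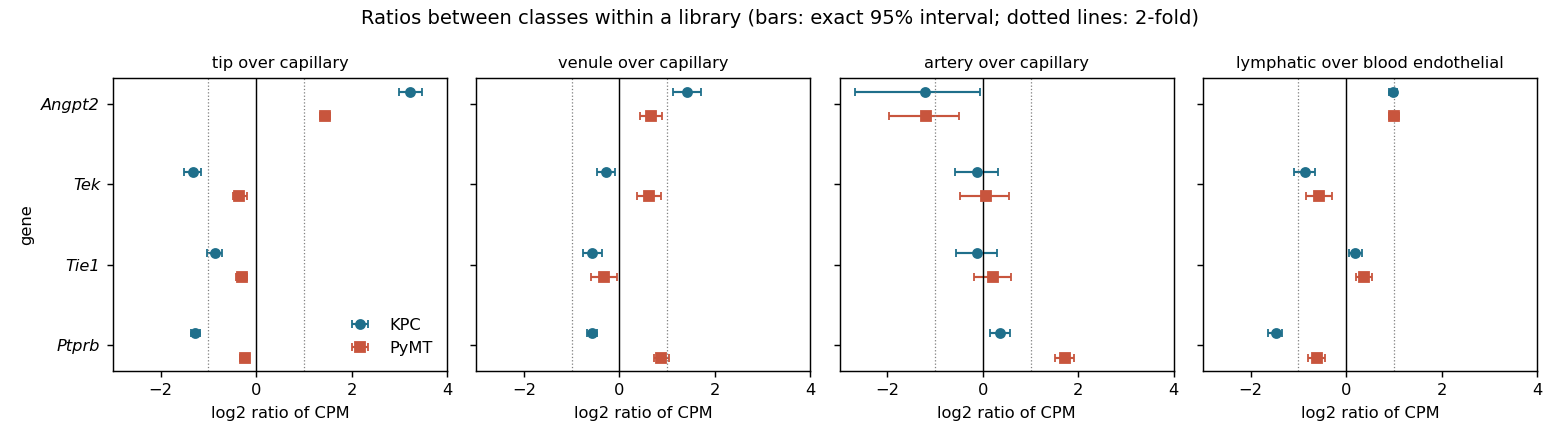
Log2 ratios of CPM between classes within a library for 4 genes, with KPC as circles, PyMT as squares, bars for the exact 95% interval and dotted lines at 2-fold. Angpt2 lay right of 0 in tip, venule and lymphatic and left of 0 in artery in both libraries, while Tek and Ptprb lay left of 0 for venule over capillary in KPC (-0.28 and -0.57) and right of 0 in PyMT (0.61 and 0.88).

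Within the tip class, the share of cells with a receptor UMI was lower among cells with an Angpt2 UMI for all 3 of Tek, Tie1 and Ptprb, although the intervals were apart only for some. After thinning, Tek was found in 34 of 544 KPC tip cells with Angpt2, or 6.25% (4.37 to 8.62), and in 110 of 751 without it, or 14.6% (12.2 to 17.4). In PyMT these were 7.45% of 564 (5.42 to 9.93) and 11.1% of 1596 (9.59 to 12.7), with overlapping intervals. Tie1 was found in 12.7% and 19.8% of the KPC tip cells and in 14.9% and 16.6% of the PyMT tip cells. Ptprb was found in 34.9% and 40.2% in KPC, with overlapping intervals, and in 15.1% (12.2 to 18.3) and 23.6% (21.5 to 25.7) in PyMT. Outside the tip class the Tek share was also lower with Angpt2 in KPC other cells (10.1%, 6.63 to 14.5, and 17.7%, 16.0 to 19.5). The intervals overlapped in KPC venule (10.8% and 23.3%), capillary (13.6% and 26.9%) and lymphatic cells (7.46% and 11.2%). They also overlapped in PyMT other (8.41% and 8.57%), venule (16.0% and 18.7%), capillary (11.1% and 13.4%) and lymphatic cells (5.20% and 8.23%). These are shares of cells with a detected UMI and not of cells that express the gene.

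Cycling cells were those with 2 or more UMIs of Mki67 and Top2a together. Among blood endothelial and other barcodes of KPC, 787 cycling cells carried Tek at 65.1 CPM against 116 in 6646 others (log2 -0.83, interval -0.99 to -0.68), and Ptprb at 228 against 432 (log2 -0.92, -1.01 to -0.84). In PyMT, 1530 cycling cells carried Tek at 61.4 CPM against 55.0 in 9147 others (log2 0.16, 0.03 to 0.29), and Ptprb at 139 against 136 (log2 0.03, -0.06 to 0.11). Tie1 was lower in cycling cells of both libraries (log2 -0.57, -0.70 to -0.43, and -0.36, -0.46 to -0.26). The classes were not mixed alike, since in KPC tip barcodes were 307 of the 787 cycling cells and 1059 of the 6646 others. Within the KPC tip class the log2 ratio was -0.11 (-0.39 to 0.17) for Tek and -0.34 (-0.49 to -0.20) for Ptprb, and within the KPC capillary class, with 69 cycling cells, it was -1.31 (-1.84 to -0.82) and -1.29 (-1.56 to -1.04). Within the PyMT tip class it was 0.15 (-0.07 to 0.36) for Tek and 0.21 (0.08 to 0.35) for Ptprb. For Tie1 it was -0.14 (-0.36 to 0.08) in KPC tip and -0.84 (-1.27 to -0.44) in KPC capillary barcodes. In PyMT the Tie1 ratio was -0.29 (-0.47 to -0.12) in tip and -0.32 (-0.52 to -0.12) in capillary barcodes. Within the tip class the cycling cells were lower in Angpt2 in both libraries, at 271 against 462 CPM in KPC (log2 -0.77, -0.89 to -0.65) and 183 against 233 in PyMT (log2 -0.35, -0.46 to -0.24). Cycling cells were deeper, with medians of 6297 against 2380 UMIs in KPC and 6694 against 3648 in PyMT, and the part of depth in these differences was not tested.

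The 2 libraries were set side by side within classes, where model, mice, sort and library cannot be told apart. Ptprb was lower in PyMT than in KPC in capillary barcodes (154 and 556 CPM, log2 -1.85, interval -1.94 to -1.76) and in other barcodes (111 and 448 CPM, log2 -2.01, -2.08 to -1.94). Tek was lower by log2 -1.13 (-1.29 to -0.97) and -1.35 (-1.47 to -1.23) in the same classes. Tek and Ptprb were the 2 of 4 members lower by 2-fold or more in PyMT in capillary barcodes, where 10.9% of 11159 genes were, and in other barcodes, where 11.1% of 12514 were. In barcodes of 3000 to 6000 UMIs the capillary ratios were -1.76 for Ptprb and -0.95 for Tek, and the ratios in other barcodes -1.74 and -1.21. The capillary markers were lower in the PyMT capillary class too, at 4884 against 12457 CPM, so this class differed between the libraries in its own markers. In tip barcodes Ptprb was lower in PyMT by log2 -0.82 (-0.91 to -0.73) over all barcodes and by -1.08 (-1.24 to -0.91) at matched depth. Tek was at -0.95 (-1.64 to -0.29) in artery barcodes, and at -1.18 at matched depth with 58 and 33 barcodes. In lymphatic barcodes Tek was at -0.26 (-0.61 to 0.08), and at -1.03 (-1.79 to -0.31) at matched depth. Venule barcodes had Tek at log2 -0.23 (-0.51 to 0.04) and Ptprb at -0.40 (-0.56 to -0.23). Tie1 was lower in PyMT capillary barcodes (log2 -0.66, -0.80 to -0.52) and lay between -0.41 and -0.09 elsewhere among the endothelial and other classes. Angpt2 was lower in PyMT in tip (log2 -0.90, -0.97 to -0.83) and lymphatic barcodes (-0.77, -0.89 to -0.65) and higher in capillary barcodes (0.89, 0.64 to 1.14), and each kept its sign and an interval apart from 0 at matched depth.

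**Figure D5:**
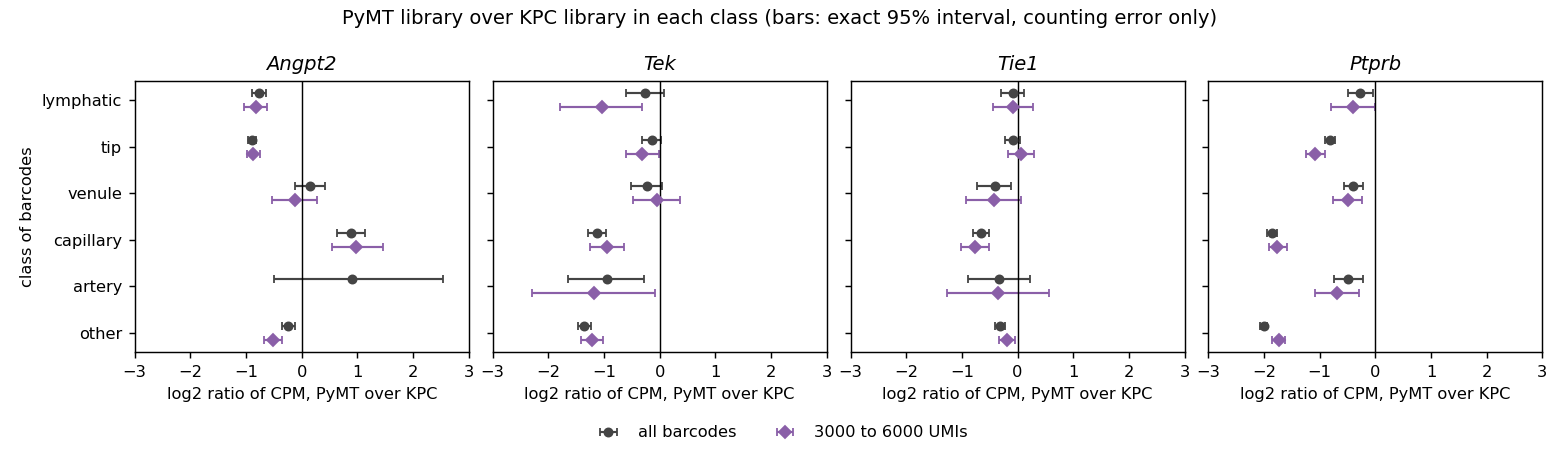
Log2 ratio of CPM of PyMT over KPC in 6 classes for 4 genes, over all barcodes (circles) and over barcodes of 3000 to 6000 UMIs (diamonds), with bars for the exact 95% interval. Ptprb lay furthest left of 0 in capillary (-1.85) and other (-2.01), and Angpt2 lay left of 0 in tip (-0.90) and lymphatic (-0.77) and right of 0 in capillary (0.89).

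Of 32 further genes of the pathway (other ligands and binding partners, integrins, adaptors, PI3-kinase, Akt and Foxo genes, shedding enzymes and endothelial transcription factors), 27 had enough UMIs in tip and capillary barcodes together. In KPC 0 of 27 were higher in tip by 2-fold or more and 4 of 27 were lower, beside the 3.52% and 7.05% of all genes. These 4 were Kdr, the main VEGF receptor (432 and 969 CPM, log2 -1.17), the flow-responsive factor Klf2 (486 and 1351 CPM, log2 -1.47), Gata2 (29.5 and 61.1 CPM, log2 -1.05) and Epas1, the hypoxia-inducible factor 2 alpha subunit (139 and 325 CPM, log2 -1.22), named here after their values were seen. In PyMT 0 of 27 passed 2-fold in either direction, and these 4 stood at log2 -0.03, -0.50, -0.05 and -0.50. The list's median log2 ratio was -0.14 for KPC and -0.04 for PyMT, beside -0.07 and -0.01 over all genes tested. Foxo1, a factor that Tek signaling restrains through Akt and that can activate Angpt2, stood at log2 -0.44 (-0.63 to -0.26) in KPC and 0.15 (0.01 to 0.28) in PyMT. In KPC fibroblast barcodes 4 of 29 listed genes were higher than in the blood endothelial pool by 2-fold or more and 11 of 29 were lower, beside 14.0% and 20.3% of all genes tested. Foxo1 above and 2 of those 4 higher genes were likewise named after their values were seen. The 2 were Angpt4, another angiopoietin (76 UMIs and 32.2 CPM, against 0 UMIs in the pool), and Svep1, a secreted matrix protein that binds Tie1 (506 UMIs and 214 CPM, against 5 UMIs).

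For each member with at least 100 UMIs in each library, the 3 genes most alike across classes were found by the lower of the 2 libraries' Pearson correlations of log2(CPM + 1), over 9 classes in KPC and 7 in PyMT and 10567 genes. For Angpt2 these were Smad1 (r = 0.939 in KPC and 0.928 in PyMT), Trappc3 and Tgs1. For Tek they were Rps6ka3 (0.975 and 0.989), C2cd2 and Gimap8, for Tie1 Sox18 (0.986 and 0.989), Thsd1 and Plekho1, and for Ptprb Gata2 (0.979 and 0.979), Rnd1 and Cmtm6. Smad1, a transducer of BMP signals, was at 298 CPM in lymphatic, 196 in tip, 156 in other, 154 in venule, 109 in capillary and 80.4 in artery barcodes of KPC and at 399, 238, 243, 172, 208 and 92.3 in PyMT. In PyMT its order thus differed from that of Angpt2, with venule below capillary and other above tip. The classes share a library and differ in depth, and Krt8/Krt18 and fibroblast barcodes lie low for every endothelial gene, so high values of r across these few points are common. With Spearman's correlation, 1 of the 3 genes was retained for Angpt2 and for Tie1 and 0 for Tek and for Ptprb.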

How the data were processed

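Per the labels, the authors sorted endothelial cells from tumors, made 10x Chromium 3′ libraries, aligned reads to mm10 and assigned cells with Cell Ranger 3.0 (3.0.2 in the matrix header). The deposited values are UMI counts per gene and barcode, whole numbers without normalization and with contaminating cells still present. The kit is given as v2 where the libraries are described and as v3 where the sort is described. Strand handling of the counting is not given in the sources used here.

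From these counts, barcodes were kept from 500 genes upwards if mitochondrial UMIs were under 10% (645 left out in KPC, 720 in PyMT) and classed by summed UMIs, in this order: Krt8+Krt18 at least 5, Col1a1+Col1a2 at least 10, Mmrn1+Prox1 at least 3, Notch3+Higd1b at least 2, Ackr1+Selp at least 3, Gja5+Sema3g at least 2, Apln at least 2, Car4+Cd300lg at least 2, other. Several gates were met by 5.91% of kept barcodes in KPC and 10.4% in PyMT; no doublets were removed. Levels are CPM of a class's summed UMIs with exact Poisson intervals, ratios have exact conditional binomial intervals, and Clopper-Pearson intervals were used for shares, at 95% throughout. Where no UMI was found, the level that 3 UMIs would make is given. Thinning drew 2000 UMIs per cell (seed 0), leaving out shallower cells. Classes under 50 cells entered no ratio. A gene was compared between 2 classes from 20 UMIs in both together and counted as higher or lower from 2-fold. With 1 library per model there was no test. UMIs of 3′ libraries are not scaled by gene length, so levels were not compared between genes. Ratios were tested on simulated counts. Named genes are the members, the 3 genes most alike to each by Pearson correlation, listed pathway genes past 2-fold in both libraries (0 were), gate genes and markers. Other pathway genes were named after their values were seen, as the text says. The members and all lists were chosen with earlier results of these data known. The comparisons of fibroblast barcodes, of lymphatic with tip barcodes, of tip barcodes that met the capillary gate and of PyMT with KPC at matched depth were added after the data were seen. Python 3.11.15, numpy 2.4.6, scipy 1.17.1, pandas 2.3.3 and matplotlib 3.10.9 were used. Imputed values and the study's cell identities were not used here.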

Additional observations from a re-analysis of the deposited data

Results flagged for a closer look

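The ratio of venule over capillary barcodes had opposite signs in the 2 libraries for 2 genes. For Ptprb the log2 ratio was -0.57 (95% interval -0.68 to -0.46) in KPC, from 375 and 556 CPM, and 0.88 (0.73 to 1.03) in PyMT, from 285 and 154 CPM. For Tek it was -0.28 (-0.48 to -0.09) in KPC, from 124 and 151 CPM, and 0.61 (0.36 to 0.86) in PyMT, from 105 and 68.9 CPM. Each model had 1 library, and the difference between the libraries was not tested. The opposite signs held for Ptprb among barcodes of 3000 to 6000 UMIs (-0.20 and 1.05). For Tek they did not, since the KPC ratio there was 0.04 (-0.31 to 0.40) beside 0.95 in PyMT.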

How the results depend on the processing

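Of 88 recomputed log2 ratios of tip over capillary and of Angpt1 in pericyte over blood endothelial barcodes, 64 moved by less than their counting interval, 24 moved by more and 0 changed sign; of 257 for the other comparisons, 221 stayed within it, 33 moved by more and 3 changed sign although their own interval lay apart from 0. Among the 221, 8 changed sign where that interval included 0. Counting tip barcodes that met the capillary gate as capillary (chosen after seeing the data, as was the range of 3000 to 6000 UMIs) gave Angpt2 1.73 in KPC and 1.19 in PyMT, Ptprb -1.10 and -0.46, Tek -1.11 in KPC, and Tie1 -0.71 and -0.12. The mean of per-cell CPM gave, in KPC, 3.88 for Angpt2, -1.60 for Tek, -1.07 for Tie1 and -1.36 for Ptprb. Barcodes of 3000 to 6000 UMIs gave Tek -0.83 in KPC and -0.19 in PyMT, Ptprb -0.78 and -0.10, and Tie1 -0.10 in PyMT. Gates on thinned counts gave Angpt2 1.62 and Tek -0.59 in PyMT and Tie1 -1.10 in KPC. Leaving out barcodes that met several gates gave Angpt2 1.67 and Ptprb -0.46 in PyMT, leaving out the highest UMI totals gave Angpt2 1.56 in PyMT, and a stricter filter on barcodes gave Tek -1.15 and Ptprb -1.14 in KPC. The 3 were in venule over capillary: Tek in KPC at 3000 to 6000 UMIs (0.04), and Tie1 in PyMT with gates on thinned counts (0.30) and without barcodes that met several gates (0.07). The cause was not tested. No paired analysis was possible because each model had 1 library. Depth limits Angpt1, with 75 and 24 UMIs, and Angpt2 in artery barcodes, with 6 and 17.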
